A study of Mus musculus with 23 samples.

Results

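The genes described here make cholesterol from acetyl-CoA, sense its level and move it between compartments. They were 28 genes listed by name from knowledge of the pathway, and 26 of them could be followed, each through the probe set with the highest mean among those that match that gene alone. All 26 passed the filter on dim signals, out of 13826 genes tested and 18193 genes with such a probe set. Acat2 and Soat2 had none and are not analysed here. Of the 26 genes, 19 encode synthesis enzymes, 4 encode the sterol sensing machinery and 3 encode carriers or transporters of sterols.

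The samples were whole livers of male C3H mice, measured on 23 Affymetrix arrays. In the 7 livers labelled CTNNB1KO_PB (KO-PB here), Ctnnb1, which encodes beta-catenin, was deleted by an Alb-Cre transgene, and the mice ate 0.05% phenobarbital (PB) for 12 weeks. The 7 livers labelled CTNNB1KO_H2O (KO-H2O) had the same deletion without PB. The 4 WT_PB livers (WT-PB) were wild type with the same PB diet, and the 5 WT_H2O livers (WT-H2O) were wild type without it. The labels call the controls a water vehicle, while the treatment text describes a diet free of PB, and they do not say whether the wild-type mice carried the loxP alleles or the Cre transgene. Cre under the albumin promoter acts in hepatocytes, so the other cells of these livers keep the gene. Nothing in the labels says that replicates are separate animals, and every p-value rests on the variation among these arrays, part of which may be technical.

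As background, hepatocytes are a main site of cholesterol synthesis. The pathway runs from acetyl-CoA through mevalonate, farnesyl pyrophosphate and squalene to lanosterol, which is then trimmed to cholesterol. Its enzymes share a switch: when membrane sterol is low, SCAP escorts the transcription factor SREBP2, the product of Srebf2, from the endoplasmic reticulum to the Golgi, where it is cut and released to the nucleus, and the INSIG proteins hold SCAP back when sterol is high. SREBP2 binds sterol regulatory elements together with NF-Y, which reads CCAAT boxes, and Sp1, which reads GC boxes. Phenobarbital activates the nuclear receptor CAR in hepatocytes, and beta-catenin sets the perivenous programme of the liver lobule.

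Promoters were read for the 22 listed genes that have a window in the RefSeq table of the GRCm38.p6 mouse build, from 250 bases before to 50 bases after the annotated start. The 4 shown belong to genes whose signals separated KO-PB from WT-PB livers, and are printed 5′ to 3′ on the gene's own strand. Capitals mark matches to TCACNCCAC, the core of a sterol regulatory element, and to CCAAT, searched on both strands, so that a match on the other strand reads ATTGG. The Hmgcs1 window lies at chr13:119690101-119690400 (plus strand), the Mvd window at chr8:122443373-122443672 (minus strand), the Nsdhl window at chrX:72918271-72918570 (plus strand) and the Hsd17b7 window at chr1:169969156-169969455 (minus strand).
Hmgcs1: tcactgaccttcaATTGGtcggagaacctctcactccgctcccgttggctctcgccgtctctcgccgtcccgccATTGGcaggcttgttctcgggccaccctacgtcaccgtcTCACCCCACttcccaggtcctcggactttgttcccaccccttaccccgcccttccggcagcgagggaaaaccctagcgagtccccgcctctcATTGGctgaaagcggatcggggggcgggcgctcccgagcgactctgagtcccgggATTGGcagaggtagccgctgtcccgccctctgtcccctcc
Mvd: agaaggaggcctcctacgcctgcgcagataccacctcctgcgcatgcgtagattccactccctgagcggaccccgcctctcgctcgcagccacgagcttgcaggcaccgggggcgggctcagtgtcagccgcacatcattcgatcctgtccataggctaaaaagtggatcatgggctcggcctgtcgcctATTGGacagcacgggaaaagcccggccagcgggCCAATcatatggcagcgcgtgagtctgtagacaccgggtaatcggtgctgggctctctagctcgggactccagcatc
Nsdhl: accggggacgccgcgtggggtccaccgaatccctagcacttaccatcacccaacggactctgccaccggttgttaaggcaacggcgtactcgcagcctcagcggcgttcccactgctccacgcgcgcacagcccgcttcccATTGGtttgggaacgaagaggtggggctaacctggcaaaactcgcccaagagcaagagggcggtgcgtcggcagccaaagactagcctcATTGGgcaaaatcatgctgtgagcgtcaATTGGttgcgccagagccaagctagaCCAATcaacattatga
Hsd17b7: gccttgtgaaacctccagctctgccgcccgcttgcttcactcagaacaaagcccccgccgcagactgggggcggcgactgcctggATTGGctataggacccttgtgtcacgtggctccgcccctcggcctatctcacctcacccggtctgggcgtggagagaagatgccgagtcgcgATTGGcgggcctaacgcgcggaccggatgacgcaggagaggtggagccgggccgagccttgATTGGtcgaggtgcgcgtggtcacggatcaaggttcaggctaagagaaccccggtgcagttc

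The core TCACNCCAC was in 1 of the 22 genes and in 1.44% of the 27025 genes of the table. A gene counted where any of its windows matched, and some genes have several windows. The match was in Hmgcs1, as TCACCCCAC at position -137, counted from the annotated start base as 0. CCAAT was in 19 of the 22 (86.4%) and in 41.1% of all genes. Hsd17b7 holds 3 CCAAT matches, at -165, -73 and -12, Mvd holds a pair at -60 and -27, and Nsdhl and Hmgcs1 hold 4 each. GGGCGG, the GC box, was in 20 of the 22 (90.9%) and in 38.2% of all genes. The search took exact matches, with N as any base, over all genes of the table, not only those tested on the arrays. A match is a description of the sequence, not of binding.

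Ctnnb1, the deleted gene, averaged 12.19 ± 0.0937 in KO-PB, 12.25 ± 0.115 in KO-H2O, 12.07 ± 0.0323 in WT-PB and 12.20 ± 0.0242 in WT-H2O livers on the log2 signal scale (SD, n = 7, 7, 4 and 5). It passed the test in none of the comparisons, and the files do not say where its probe set lies relative to the deleted exons, so it does not check the genotype. Albumin averaged between 14.68 and 14.80 on the log2 signal scale in the 4 groups. Cyp2b10, the classical CAR target, was 3.01 log2 units higher in KO-PB than in KO-H2O livers and 6.96 higher in WT-PB than in WT-H2O livers. It was already 4.06 log2 units higher in KO-H2O than in WT-H2O livers (adjusted p = 1.1e-08, limma), and 12.76 ± 0.173 in KO-PB against 12.64 ± 0.0483 in WT-PB livers (SD, n = 7 and 4; log2 change 0.11, adjusted p = 0.84, limma). Glul, the perivenous glutamine synthetase that depends on beta-catenin, gave a log2 change of -3.10 in KO-PB against WT-PB livers and of -3.51 in KO-H2O against WT-H2O livers. KO livers also held more signal from other cell types: the summed macrophage markers (14 genes, log2 of the sum) ran from 11.81 to 13.68 in KO-PB livers and from 11.88 to 14.29 in KO-H2O livers, against 11.08 to 11.28 in WT-PB and 11.16 to 11.90 in WT-H2O livers. The summed hepatocyte markers ran from 16.86 to 17.04 over all arrays. Albumin is among them and lay close to the highest signal of the series, 14.92, where differences may be understated. In whole liver, fewer cells of a type and less RNA per cell cannot be told apart. Arrays of the KO-H2O group varied most: the median SD over the 26 genes was 0.209 in KO-PB, 0.338 in KO-H2O, 0.0990 in WT-PB and 0.157 in WT-H2O livers.

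Most of the calls in these genes were between the genotypes under PB. In KO-PB livers, 9 of the 19 sterol enzymes fell relative to WT-PB livers, 0 rose and 10 did not pass the test, by limma with Benjamini-Hochberg adjustment over all genes at 0.05. Of all 26 genes, 11 fell and 1 rose, against 8.12% of all tested genes that fell and 11.9% that rose. The median log2 change was -0.52 over the enzymes and -0.40 over the 26 genes, beside 0.002 over all genes tested. The groups did not overlap, with every KO-PB array below every WT-PB array, for 14 of the 26 genes, a state that 7.38% of all tested genes showed, and every KO-PB array was above for 1 gene, as for 11.2% of all genes.

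**Figure D1:**
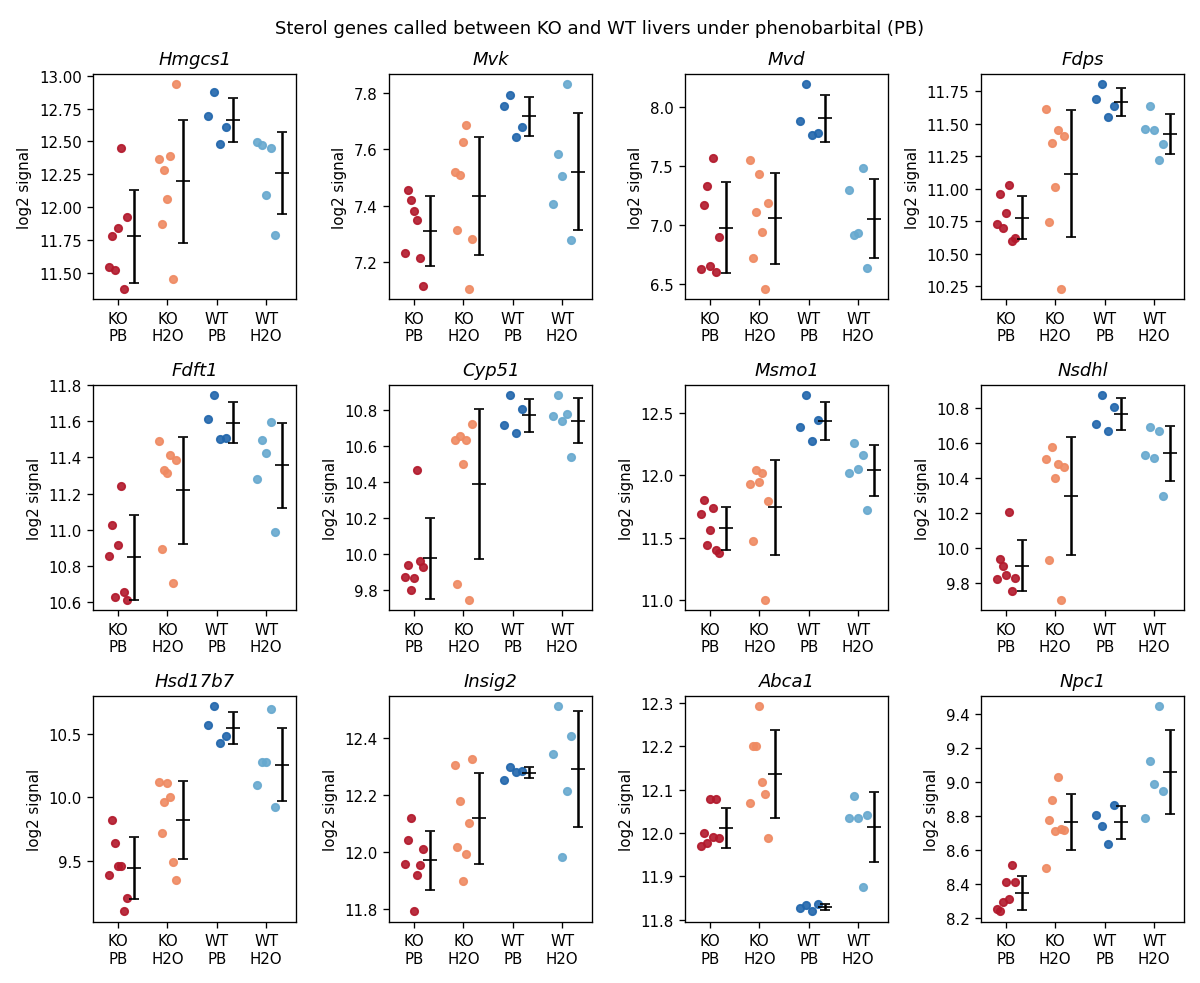
Log2 signal of the 12 sterol genes that passed the test between KO-PB and WT-PB livers, 1 panel per gene, with a point for each array in the groups KO-PB, KO-H2O, WT-PB and WT-H2O and bars for mean ± SD (n = 7, 7, 4 and 5). In 11 panels every KO-PB point lies below every WT-PB point, and in the Abca1 panel every KO-PB point lies above.

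Hmgcs1 makes HMG-CoA in the cytosol and so feeds the mevalonate pathway (chr13:119690351-119708260, probe set 1433443_a_at). Its lowest, median and highest log2 signals were 11.38, 11.78 and 12.45 in KO-PB livers, against 12.69, 12.88, 12.48 and 12.61 in WT-PB livers. The 7 KO-PB arrays all lay under the lowest WT-PB array, although by a narrow margin at the top. Hmgcs1 was 1.85-fold lower (log2 change -0.89, SE 0.216, adjusted p = 0.0063, limma), and all 5 of its probe sets gave a negative change.

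Among the enzymes from mevalonate to the isoprenoid pyrophosphates, 3 of 6 fell. Mvd decarboxylates mevalonate pyrophosphate (chr8:122433596-122443422, probe set 1448663_s_at), and its lowest, median and highest log2 signals were 6.59, 6.89 and 7.57 in KO-PB livers, against 7.88, 8.19, 7.76 and 7.78 in WT-PB livers. The groups were apart, and Mvd was 1.9-fold lower (log2 change -0.93, SE 0.209, adjusted p = 0.0036, limma). Fdps joins isoprene units into farnesyl pyrophosphate (chr3:89093588-89101967, probe set 1423418_at) and gave 10.60, 10.73 and 11.03 as lowest, median and highest log2 signal in KO-PB livers, against 11.69, 11.80, 11.55 and 11.63 in WT-PB livers. The highest KO-PB array lay well under the lowest WT-PB array, and Fdps was 1.86-fold lower (log2 change -0.89, SE 0.179, adjusted p = 0.0014, limma). Mvk, the mevalonate kinase (chr5:114444264-114460591, probe set 1418052_at), averaged 7.31 ± 0.125 in KO-PB livers (SD, n = 7) and 7.72 ± 0.0684 in WT-PB livers (SD, n = 4). It was 1.33-fold lower, with an adjusted p of 0.0083 by limma and no overlap.

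The other genes of that stretch did not pass. Idi1, the isopentenyl pyrophosphate isomerase, gave a log2 change of -0.53 (adjusted p = 0.059, limma), although its KO-PB arrays, at most 12.22, all lay under the WT-PB arrays, at least 12.28. Pmvk, the phosphomevalonate kinase, gave -0.16 (95% interval -0.52 to 0.20). Ggps1, which makes the geranylgeranyl pyrophosphate used to tether proteins and lies off the route to sterols, gave 0.13 (95% interval -0.10 to 0.36). The last of these was the only enzyme of the stretch with a positive change.

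Of the 3 enzymes between farnesyl pyrophosphate and lanosterol, 1 fell. Fdft1, the squalene synthase and the committed step to sterols (chr14:63145150-63181687, probe set 1438322_x_at), had a lowest, median and highest log2 signal of 10.61, 10.85 and 11.24 in KO-PB livers, against 11.61, 11.74, 11.50 and 11.51 in WT-PB livers. The groups did not overlap, and Fdft1 was 1.68-fold lower (log2 change -0.75, SE 0.146, adjusted p = 0.0011, limma). Of its 4 probe sets, 3 gave a negative change and 2 passed. Sqle, which oxidises squalene in a rate-limiting step, gave a log2 change of -0.34 (95% interval -0.69 to 0.02, adjusted p = 0.17, limma), and Lss, which closes the ring to lanosterol, gave -0.40 (95% interval -0.78 to -0.02, adjusted p = 0.13, limma). Both overlapped between the groups.

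Of the 9 enzymes that turn lanosterol into cholesterol, 4 fell, of which Msmo1, Nsdhl and Hsd17b7 act in succession. Cyp51 removes the methyl group at the ring junction (chr5:4080674-4104697, probe set 1450646_at) and gave 9.80, 9.92 and 10.47 as lowest, median and highest log2 signal in KO-PB livers, against 10.72, 10.88, 10.68 and 10.81 in WT-PB livers. It was 1.74-fold lower (log2 change -0.80, SE 0.164, adjusted p = 0.0017, limma), with no overlap even at the KO-PB array that stood apart at the top. Msmo1 oxidises the remaining methyl groups (chr8:64718123-64733578, probe set 1423078_a_at), with 11.38, 11.56 and 11.80 in KO-PB livers, against 12.39, 12.64, 12.27 and 12.44 in WT-PB livers. The groups were well apart, and Msmo1 was 1.82-fold lower (log2 change -0.86, SE 0.155, adjusted p = 0.00052, limma).

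Nsdhl removes the carboxyl group that Msmo1 leaves (chrX:72918521-72958528, probe set 1416222_at). Its lowest, median and highest log2 signals were 9.75, 9.84 and 10.20 in KO-PB livers, against 10.71, 10.87, 10.67 and 10.80 in WT-PB livers. The groups did not overlap, and Nsdhl was 1.82-fold lower (log2 change -0.87, SE 0.134, adjusted p = 0.00010, limma). Hsd17b7 reduces the ketone that remains (chr1:169949535-169969242, probe set 1457248_x_at). It gave 9.10, 9.45 and 9.82 in KO-PB livers, against 10.58, 10.72, 10.43 and 10.48 in WT-PB livers. Its change was the largest of the 26 genes in this comparison, 2.17-fold lower (log2 change -1.12, SE 0.158, adjusted p = 3.6e-05, limma), and its 3 tested probe sets all passed.

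The remaining enzymes of this stretch did not pass. Tm7sf2, a sterol C14 reductase, had no overlap between the groups, at most 10.85 in KO-PB and at least 10.96 in WT-PB livers, with a log2 change of -0.52 (adjusted p = 0.052, limma). Lbr, the lamin B receptor that has the same reductase activity, gave -0.07 (95% interval -0.28 to 0.15). The last steps also gave small values: Ebp, the sterol isomerase, -0.05 (95% interval -0.29 to 0.19), Sc5d, the C5 desaturase, 0.16 (SE 0.0792, adjusted p = 0.15, limma), and Dhcr7, the 7-dehydrocholesterol reductase, -0.07 (95% interval -0.37 to 0.23). An interval that spans 0 leaves room for changes of the sizes it covers.

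Among the 4 sensing genes, 1 fell. Insig2, the INSIG form that is abundant in liver (chr1:121304353-121332662, probe set 1417981_at), had a lowest, median and highest log2 signal of 11.79, 11.96 and 12.12 in KO-PB livers, against 12.25, 12.30, 12.28 and 12.28 in WT-PB livers. The 4 WT-PB arrays were nearly equal and above all KO-PB arrays, and Insig2 was 1.24-fold lower (log2 change -0.31, SE 0.0887, adjusted p = 0.019, limma). Insig1, itself a target of SREBP2, gave -0.38 (adjusted p = 0.068, limma), with overlap. Srebf2 gave -0.17 (95% interval -0.33 to -0.01, adjusted p = 0.12, limma) and Scap gave -0.04 (95% interval -0.39 to 0.31).

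The 3 transport genes did not move one way. Npc1, which exports cholesterol from lysosomes (chr18:12189694-12236506, probe set 1423086_at), gave 8.24, 8.31 and 8.52 as lowest, median and highest log2 signal in KO-PB livers, against 8.81, 8.74, 8.64 and 8.87 in WT-PB livers. The groups were apart and Npc1 was 1.33-fold lower (log2 change -0.41, SE 0.0994, adjusted p = 0.0057, limma). Abca1, the cholesterol efflux pump that LXR induces and that macrophages also express (chr4:53030789-53159988, probe set 1421840_at), was the 1 gene that rose. It gave 11.97, 11.99 and 12.08 in KO-PB livers, against 11.83, 11.84, 11.82 and 11.84 in WT-PB livers. The WT-PB arrays were almost identical, and Abca1 was 1.13-fold higher in KO-PB livers (log2 change 0.18, SE 0.0519, adjusted p = 0.017, limma). That SE rests on the spread pooled over all groups, not on the WT-PB arrays alone. Stard4, a cytosolic sterol carrier and SREBP2 target, gave -0.49 (adjusted p = 0.069, limma) with no overlap between the groups. Its 3 probe sets all gave a negative change, and 1 that was not chosen passed (log2 change -0.64, adjusted p = 0.049, limma over all probe sets).

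All 12 of these calls held in each of 34 alternative analyses. Beside the marker counts that follow, 11.9% of all tested genes rose and 8.12% fell in KO-PB against WT-PB livers. Markers of some other cells moved with the genotype: 7 of 14 macrophage markers, 5 of 10 stellate cell and scar markers and 5 of 8 endothelial markers were higher in KO-PB than in WT-PB livers, and 2 of 7 hepatocyte markers were higher and 0 lower. By contrast, 1 of 5 neutrophil, 1 of 4 cholangiocyte and 0 of 5 lymphocyte markers were higher, and the 1 blood marker tested did not pass. Their part in the sterol gene changes was not tested.

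**Figure D2:**
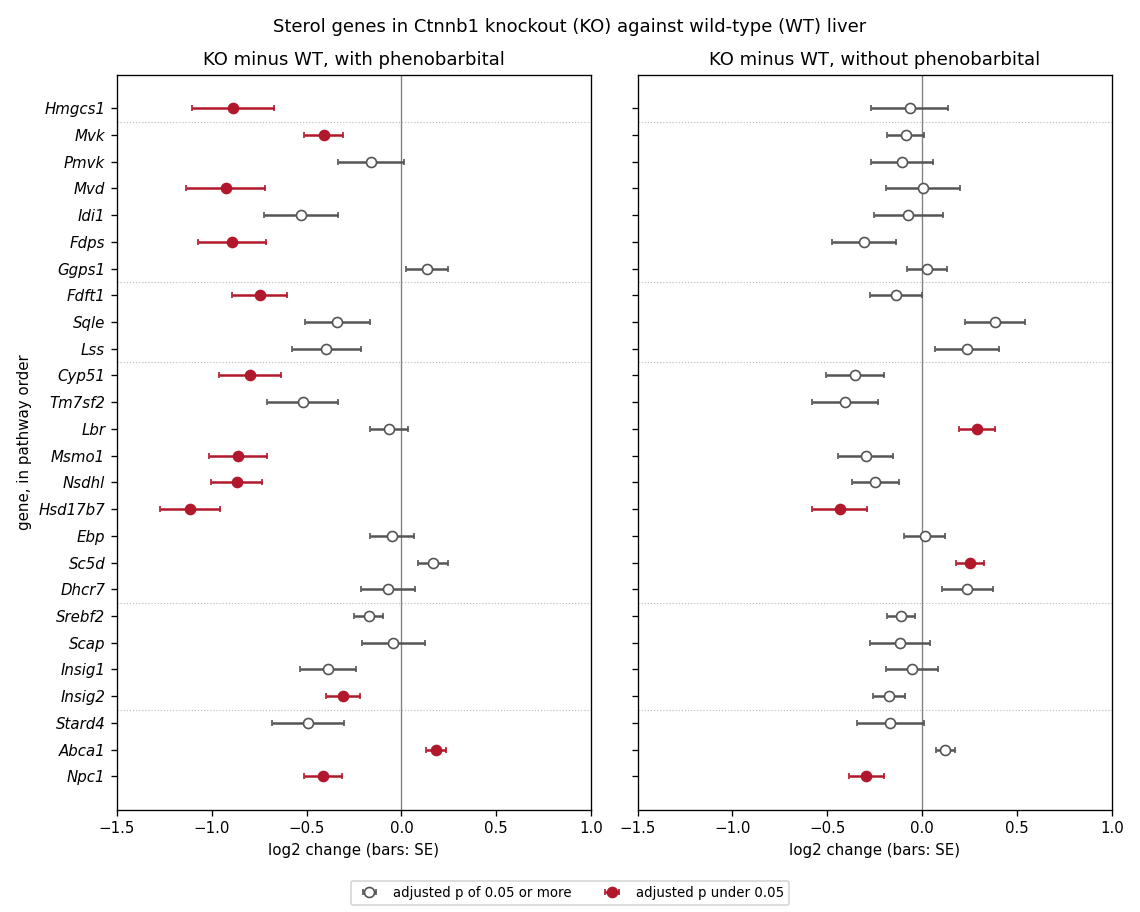
Log2 change of the 26 sterol genes in KO minus WT livers, with PB on the left and without PB on the right (points, bars are SE, genes in pathway order with dotted lines between roles). With PB, 23 of the 26 points lie left of 0 and 12 are filled as passing the test, while without PB 17 lie left of 0 and 4 are filled.

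In KO-H2O against WT-H2O livers, 2 of the 26 genes rose and 2 fell, where 14.8% of all tested genes rose and 10.1% fell, a share of calls below the background. The median log2 change was -0.10 over the 26 genes and -0.07 over the 19 enzymes, and 0 of the 26 separated the groups without overlap, against 10.6% of all genes. This comparison and the one under PB use different arrays.

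Lbr and Sc5d rose. Lbr had a lowest, median and highest log2 signal of 8.52, 8.64 and 9.0 in KO-H2O livers, against 8.56, 8.39, 8.38, 8.37 and 8.54 in WT-H2O livers, a change of 0.29 (SE 0.0952, adjusted p = 0.032, limma). Sc5d gave 12.51, 12.77 and 12.92 in KO-H2O livers, against 12.68, 12.32, 12.51, 12.50 and 12.51 in WT-H2O livers, a change of 0.25 (SE 0.0739, adjusted p = 0.017, limma). Both pairs of groups overlapped at the edge.

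Hsd17b7 and Npc1 fell, as they did under PB. Hsd17b7 gave 9.35, 9.97 and 10.12 in KO-H2O livers, against 10.10, 10.28, 10.28, 10.70 and 9.93 in WT-H2O livers, with a log2 change of -0.44 (SE 0.147, adjusted p = 0.035, limma). Npc1 gave 8.50, 8.73 and 9.03 in KO-H2O livers, against 8.79, 9.12, 8.99, 9.45 and 8.95 in WT-H2O livers, with a change of -0.29 (SE 0.0929, adjusted p = 0.025, limma). The KO-H2O arrays lay low within ranges that overlapped. Each of the 4 calls was lost in some of the 34 alternatives: 11 for Lbr, 11 for Hsd17b7, 3 for Sc5d and 7 for Npc1. Lbr lost it without KO-H2O replicate 1, 6 or 7 or WT-H2O replicate 2, 3 or 4 (adjusted p up to 0.19 over all alternatives), and Hsd17b7 without KO-H2O replicate 2, 6 or 7 or WT-H2O replicate 2, 3 or 4 (up to 0.38). Npc1 lost it without KO-H2O replicate 1 or WT-H2O replicate 2 or 4 (up to 0.13), and Sc5d without WT-H2O replicate 2 (up to 0.80). With only the compared groups in the fit, 0 passed, and leaving out WT-H2O replicate 2 also left 0. Sc5d has 3 probe sets of which 2 gave a negative change, and over their mean its change was 0.05. The 3 tested probe sets of Hsd17b7 all passed without PB in a fit over all probe sets. In that fit 1 probe set of Stard4 and 1 of Insig2 also passed, though neither was the chosen one (log2 change -0.66 and -0.34, adjusted p = 0.027 and 0.046, limma).

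The KO-H2O livers were not uniform. Replicate 6 gave the lowest signal of its group for 16 of the 19 enzymes, with a median deviation of -0.59 from the group means, and replicate 2 followed at -0.29. Their macrophage sums were 14.29 and 14.02, among the highest of the series. Replicate 7, with a macrophage sum of 14.13, had a median deviation of 0.17, and replicate 1, with 13.41, had 0.26. High macrophage signal thus came with low enzyme signal in some of these arrays and not in others. The summed stellate cell and scar markers (10 genes, log2 of the sum) were 14.05 in replicate 6 and 13.74 in replicate 2. They were 13.15 in replicate 7 and 12.55 in replicate 1. Among KO-PB arrays the highest scar sum, 13.24 in replicate 4, came with a median deviation of 0.02. In KO-H2O against WT-H2O livers 14.8% of all tested genes rose. Among macrophage markers 8 of 14 rose there, as did 7 of 10 scar markers and 6 of 8 endothelial markers. Their part in the values of the 26 genes was not tested.

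**Figure D3:**
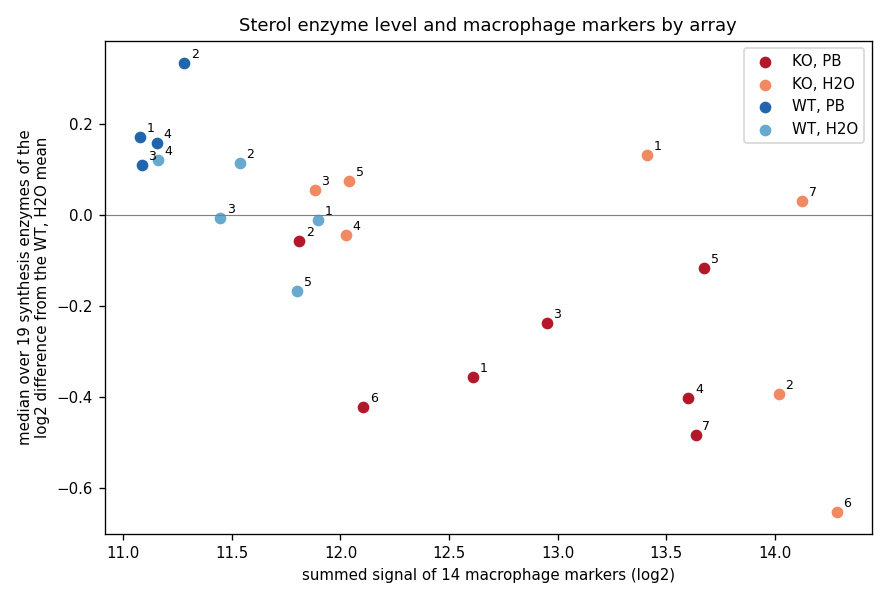
Median over the 19 sterol enzymes of each array's log2 difference from the WT-H2O mean (vertical axis) against the summed signal of 14 macrophage markers (horizontal axis, log2), with a point per array numbered by replicate. KO-PB arrays lie between -0.48 and -0.06 and KO-H2O arrays between -0.65 and 0.13, with WT-PB arrays between 0.11 and 0.33 and WT-H2O arrays between -0.17 and 0.12.

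The sterol genes' changes with PB had mostly opposite signs in KO and WT livers, and few of them passed the test. In KO livers, KO-PB against KO-H2O, 24 of the 26 log2 changes were negative, with a median of -0.18, and in WT livers, WT-PB against WT-H2O, 19 of 26 were positive, with a median of 0.13. The medians over all genes tested were 0.006 and 0.008. In KO livers 1 of 26 genes fell and 0 rose, where 0.882% of all tested genes fell and 1.17% rose. In WT livers 1 of 26 rose and 0 fell, where 1.95% rose and 1.9% fell. At an unadjusted p under 0.05, 11 genes were lower in KO-PB than in KO-H2O livers and 0 higher, where 14.7% of all genes passed in either direction. The same threshold gave 3 higher and 2 lower in WT livers, where 15.5% of all genes passed. Markers of most cell types were also lower by sign in KO-PB than in KO-H2O livers: 10 of 10 stellate cell and scar markers (1 passed), 8 of 8 endothelial, 10 of 14 macrophage and 4 of 5 neutrophil markers gave negative changes. So did 5 of 7 hepatocyte, 3 of 5 lymphocyte and 3 of 4 cholangiocyte markers, while the 1 blood marker tested gave a positive change. With PB in WT livers, 11 of 14 macrophage, 5 of 7 hepatocyte, 5 of 8 endothelial, 3 of 5 neutrophil and 4 of 10 stellate cell and scar markers gave negative changes. The median summed neutrophil signal was 7.85 in KO-PB and 9.01 in KO-H2O livers on the log2 scale. Their part in the sterol gene values was not tested.

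**Figure D4:**
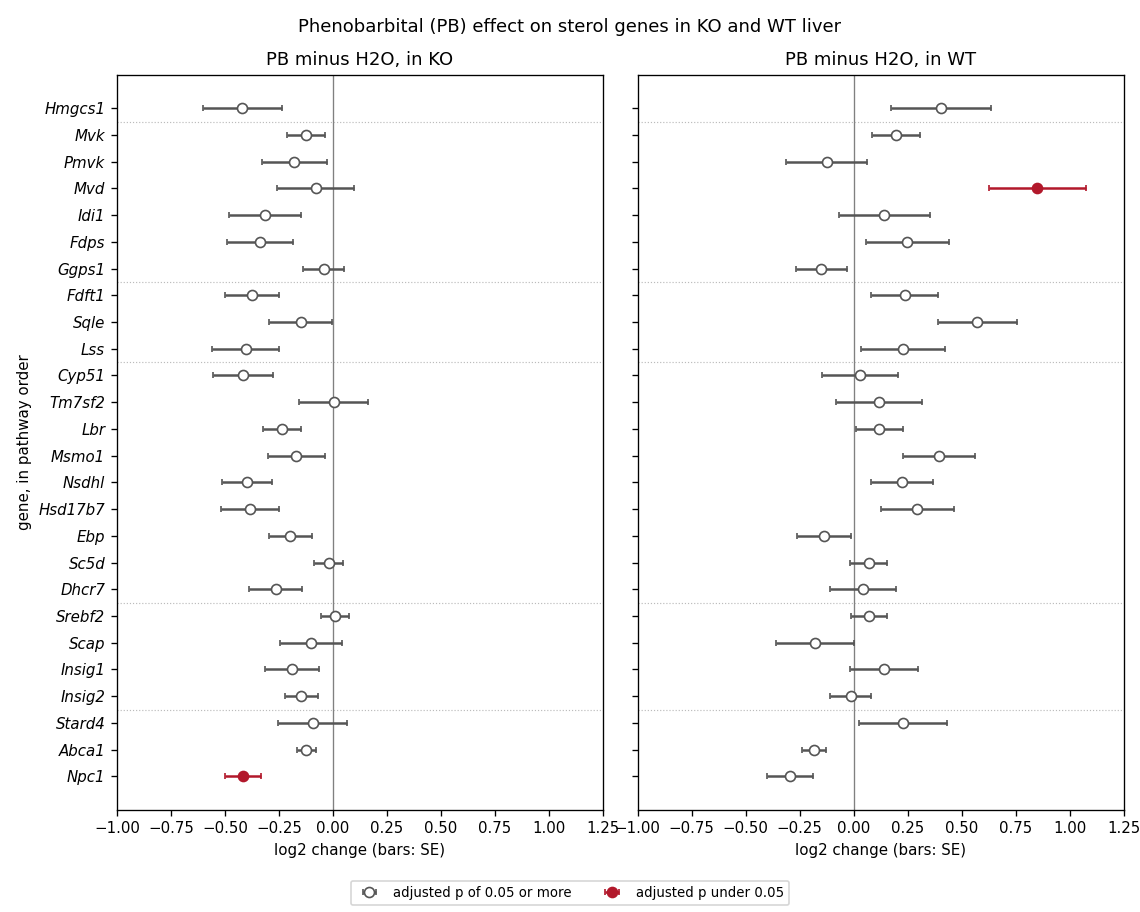
Log2 change of the 26 sterol genes in PB minus H2O livers, for KO on the left and WT on the right (points, bars are SE, genes in pathway order). In KO livers 24 points lie left of 0 and Npc1 is filled as passing the test, and in WT livers 19 lie right of 0 and Mvd is filled.

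Npc1 was the gene that fell with PB in KO livers. It averaged 8.35 ± 0.100 in KO-PB livers (SD, n = 7) and 8.77 ± 0.166 in KO-H2O livers (SD, n = 7), a log2 change of -0.42 (SE 0.0848, adjusted p = 0.010, limma) that held in all 34 alternatives. The highest KO-PB array, at 8.52, just passed the lowest KO-H2O array, at 8.50. In WT livers Npc1 gave -0.30 (adjusted p = 0.15, limma), and the difference between the genotypes in its PB effect was -0.12 (95% interval -0.40 to 0.16).

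The enzymes of KO livers gave negative values over most of the pathway without passing. Nsdhl gave -0.40 (adjusted p = 0.073, limma), with 9.75, 9.84 and 10.20 as lowest, median and highest log2 signal in KO-PB livers, against 9.70, 10.46 and 10.57 in KO-H2O livers. The low end of the KO-H2O range comes from replicates 6 and 2, which had the lowest median enzyme deviations of their group, -0.59 and -0.29. Leaving them out raises the KO-H2O means of these enzymes by construction. The counts without them below are therefore no independent support for a fall. Without the KO-H2O arrays 2, 6 and 7, a set chosen with an earlier analysis of these data known (limma's array weights are 0.540, 0.324 and 0.210 here), 13 of 26 genes fell with PB, where 5.68% of all genes passed in either direction, among them Nsdhl (log2 change -0.59, adjusted p = 0.00023, limma), Cyp51 (-0.63, adjusted p = 0.00070) and Fdps (-0.58, adjusted p = 0.0030). Leaving out replicate 6 alone gave 6 genes, where 1.96% of all genes passed, and leaving out replicate 2 alone gave 3, where 1.82% did. With array weights 9 passed, where 3.33% of all genes did.

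Mvd was the gene that rose with PB in WT livers. It gave 7.88, 8.19, 7.76 and 7.78 in WT-PB livers, against 7.29, 6.92, 6.92, 7.48 and 6.64 in WT-H2O livers. Every WT-PB array was above every WT-H2O array, and the change was 0.85, or 1.80-fold (SE 0.223, adjusted p = 0.032, limma), with both of its probe sets passing. The call was lost without any 1 of the 4 WT-PB arrays or without WT-H2O replicate 2, 3 or 5, and with a replicate block, at adjusted p values up to 0.11. In KO livers Mvd gave -0.08 (95% interval -0.45 to 0.29).

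Sqle and Msmo1 also separated the WT groups, as 6.04% of all genes did upward. Sqle gave 10.81, 10.98, 10.76 and 10.75 in WT-PB livers, against 10.40, 10.46, 10.05, 10.25 and 10.10 in WT-H2O livers, a log2 change of 0.57 (SE 0.183, adjusted p = 0.090, limma). Msmo1 gave 12.39, 12.64, 12.27 and 12.44 in WT-PB livers, against 12.01, 12.26, 12.05, 12.16 and 11.72 in WT-H2O livers, a change of 0.40 (SE 0.166, adjusted p = 0.24, limma). Neither passed. Abca1 lay the other way without overlap, as 5.56% of all genes did downward, with 11.83, 11.84, 11.82 and 11.84 in WT-PB livers, against 12.04, 12.08, 12.04, 11.88 and 12.04 in WT-H2O livers, a change of -0.18 (adjusted p = 0.068, limma).

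Whether PB acted differently in the 2 genotypes was tested directly, as the PB effect in KO livers minus that in WT livers. By limma 0 of 26 genes passed, where 0.875% of all genes did, and 11 were negative and 0 positive at an unadjusted p under 0.05, where 10.3% of all genes reached it in either direction. All 11 were synthesis enzymes. The values were -0.93 for Mvd (95% interval -1.52 to -0.34, adjusted p = 0.17), -0.82 for Hmgcs1 (95% interval -1.44 to -0.21, adjusted p = 0.27), -0.72 for Sqle (95% interval -1.21 to -0.24, adjusted p = 0.20) and -0.62 for Nsdhl (SE 0.183, adjusted p = 0.14, limma). The median was -0.46 over the 19 enzymes and -0.003 over all genes tested. This difference shares its arrays with the comparisons above and is no separate evidence. It gave 10 genes without KO-H2O arrays 2, 6 and 7, where 1.97% of all genes passed, 9 with array weights, where 2.34% did, and 2 without KO-H2O replicate 6, where 0.832% did. Here too, replicates 2 and 6 were low for these same enzymes, so the counts without them are no independent support.

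The order of the group means describes the same arrays. KO-PB had the lowest mean for 14 of the 19 enzymes and the highest for 0. KO-H2O had the highest for 6, among them Lss, Lbr and Dhcr7. WT-PB had the highest for 12, from Hmgcs1 to Hsd17b7. WT-H2O had the highest for 1, Pmvk, and the lowest for 3, Sqle, Lbr and Sc5d. The middle ranks are less clear: for Fdps the means were 10.78 ± 0.165 in KO-PB, 11.11 ± 0.489 in KO-H2O, 11.67 ± 0.107 in WT-PB and 11.42 ± 0.154 in WT-H2O livers (SD, n = 7, 7, 4 and 5), and KO-H2O did not differ from WT-H2O beyond its spread (adjusted p = 0.18, limma).

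The synthesis enzymes also moved together between arrays of 1 group. After the group means were removed, the median correlation over the 171 pairs of enzymes was 0.578 over the 23 arrays, with 151 pairs positive, and was 0.004 over pairs of all genes. Positive and negative pairs cancel in that last median, and the spread of correlations over pairs of all genes was not measured. Within KO-PB livers alone the median was 0.485, and within KO-H2O livers alone 0.727. Pairs of genes on an array share its RNA, labelling and quality. Nsdhl had the highest median correlation with the other enzymes, 0.741, with Fdps at 0.740, Lss at 0.723 and Fdft1 at 0.709. Lbr stood at 0.134 and Ggps1, the enzyme that branches off the sterol route, at -0.264, with single pairs between -0.68 (Hsd17b7) and 0.19 (Lbr). Outside the enzymes, Insig1 reached 0.530 and Stard4 0.406, with Insig2 at 0.153, Npc1 at 0.069 and Abca1 at -0.105.

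**Figure D5:**
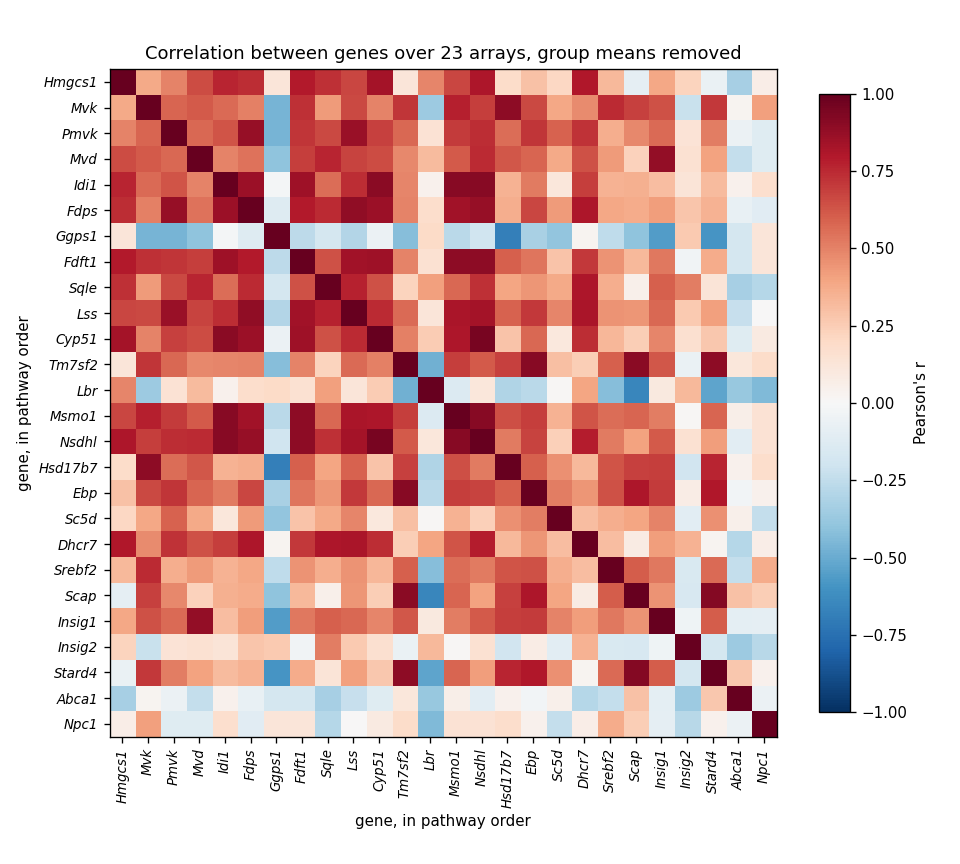
Pearson's correlation between each pair of the 26 sterol genes over 23 arrays, after each group's mean was removed, with genes in pathway order on both axes and colour from -1 (blue) to 1 (red). The enzyme block is mostly red, with 151 of 171 pairs above 0, and Ggps1 and Lbr form pale or blue stripes through it.

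Sqle served as the fixed partner for a test of this movement, since it is strongly regulated by sterols. Of 25 pairs with Sqle, 13 passed at 0.05 by a two-sided permutation test of arrays within groups with 100000 resamples, adjusted over the 25 pairs, and all 13 were positive. How many of all tested genes would pass this test with Sqle was not measured. The count therefore does not show that the movement is particular to these genes. The pair with Dhcr7 had Pearson's r = 0.81 (permutation p = 1e-04, adjusted 0.0020) and Spearman's rho = 0.83 (permutation p = 5e-05, adjusted 0.0013), and r was 0.80 without the 2 arrays farthest from the median of Sqle. Lss gave r = 0.77 and rho = 0.74 (permutation p = 0.00029 and 0.00057, adjusted 0.0020 and 0.0033), and r = 0.73 without those arrays. Insig1 gave r = 0.60 and rho = 0.58 (permutation p = 0.0094 and 0.012, adjusted 0.024 and 0.033). Without those arrays Insig1 had r = 0.47 and no longer passed (permutation p = 0.066, adjusted 0.13). The arrays left out were KO-PB replicate 6 and KO-H2O replicate 1, and 7 of the 25 pairs passed without them.

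Within the groups of 7 the same pairs were tested by exact permutation. In KO-PB livers 1 of 25 pairs passed, Insig1, with r = 0.95 and rho = 1 (exact p = 0.00020 and adjusted p = 0.0050 for r). In KO-H2O livers 3 of 25 passed, Dhcr7 with r = 0.97, Lss with r = 0.93 and Fdps with r = 0.90 (exact p = 0.00099, 0.0018 and 0.0028 for r, adjusted 0.022, 0.022 and 0.023). Pairs of Sqle with Abca1, Npc1 and Ggps1 had r = -0.33, -0.28 and -0.18 over the 23 arrays (permutation p = 0.20, 0.20 and 0.53, adjusted 0.24, 0.24 and 0.57), and none of them passed.

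Genes around the pathway were read in the same fit. Of all tested genes, 11.9% rose and 8.12% fell in KO-PB against WT-PB livers. In KO-H2O against WT-H2O livers 14.8% rose and 10.1% fell. Of 11 further genes of SREBP processing and sterol-regulated degradation, 2 rose and 2 fell in KO-PB against WT-PB livers and 1 rose in KO-H2O against WT-H2O livers. The last was Rnf145, a ubiquitin ligase of the endoplasmic reticulum, 0.77 higher in KO-PB than in WT-PB livers (adjusted p = 0.0014) and 0.69 higher in KO-H2O than in WT-H2O livers (adjusted p = 0.0018, limma) on the log2 scale. Mbtps1, the site-1 protease that cuts SREBP2, fell by 0.24 on the log2 scale, at 8.72 ± 0.118 in KO-PB livers and 8.96 ± 0.0900 in WT-PB livers (SD, n = 7 and 4, adjusted p = 0.019, limma).

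Of 8 further LXR targets and efflux genes, 3 rose and 0 fell in each genotype comparison. The shares of all tested genes that rose were 11.9% with PB and 14.8% without it, and 8.12% and 10.1% fell. Abcg1, an efflux pump abundant in macrophages, was 0.94 higher in KO-PB than in WT-PB livers and 1.12 higher in KO-H2O than in WT-H2O livers (adjusted p = 0.049 and 0.012, limma). Mylip, a ubiquitin ligase that degrades lipoprotein receptors, was 0.85 higher in KO-PB than in WT-PB livers and 0.92 higher in KO-H2O than in WT-H2O livers (adjusted p = 0.00096 and 0.00021, limma). Several macrophage markers were also higher in KO than in WT livers in both comparisons, as given above, and their part was not tested.

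Of 13 genes of uptake and trafficking, 2 rose and 2 fell in KO-PB against WT-PB livers, and 3 rose and 2 fell in KO-H2O against WT-H2O livers. Over all tested genes, 11.9% rose and 8.12% fell in the comparison with PB, and 14.8% rose and 10.1% fell without it. Npc2, the soluble partner of Npc1 in lysosomes, was 0.52 higher in KO-PB than in WT-PB livers, while Npc1 fell there (adjusted p = 0.043 for Npc2, limma). Of 9 genes that turn sterol into bile acids, 2 fell in KO-PB against WT-PB livers and 5 fell in KO-H2O against WT-H2O livers, with 0 rising. Cyp27a1, the mitochondrial sterol 27-hydroxylase, averaged 10.77 ± 0.384 in KO-PB livers against 11.75 ± 0.0779 in WT-PB livers (SD, n = 7 and 4), and 10.50 ± 0.415 in KO-H2O livers against 11.86 ± 0.0997 in WT-H2O livers (SD, n = 7 and 5), with adjusted p of 0.0011 and 1.6e-05 by limma. Cyp7a1, the rate-limiting enzyme of bile acid synthesis, was lower without PB, with a log2 change of -0.96 in KO-H2O against WT-H2O livers (adjusted p = 0.037, limma).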

How the data were processed

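Total RNA from the 23 livers was measured on Affymetrix arrays, and the authors deposited log2 signal values per probe set, made with RMA in the affy package per the submitters' processing notes; versions are not given in the sources used here. Arrays have no read depth; precision is set by how many there are. Of 45037 probe sets, 34945 match a single gene, 932 several and 9160 none in the platform annotation, and symbols were updated through Entrez identifiers for 34741 of them to the GRCm38.p6 table. Each gene was represented by its single-gene probe set with the highest mean. The filter on dim signals asked that 4 or more arrays put the gene above their own 40th percentile, taken over every probe set, and kept 13826 of 18193 genes. Linear models with 1 mean per group over all 23 arrays were fitted with limma 3.58.1 (lmFit, eBayes) in R 4.3.3, with two-sided tests and Benjamini-Hochberg adjustment over all genes tested, at 0.05. The steps were tested on simulated data. Correlations used Python 3.11.15 with SciPy 1.17.1 on deviations from group means. The members, gene lists and tests were chosen with earlier results of these data known. The text names all members, 4 check genes, and of each further pathway list at most 3 genes that passed with the largest change. Alternatives covered normalization, the filter, the choice of probe set, the variance prior, array weights, arrays left out, a replicate block and fits of the compared groups alone. Promoter sequences are from RefSeq (GRCm38.p6).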

Additional observations from a re-analysis of the deposited data

Results flagged for a closer look

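In 104 sets of values, each the arrays of 1 group for 1 of the 26 sterol genes, 4 held an array far from the others of its group by Dixon's test, where chance gives about 1 in 20, or 5.2 here. KO-PB replicate 5 was the highest of its group for Cyp51, at 10.467 against 9.9591 for the next, and for Nsdhl, at 10.203 against 9.933. KO-H2O replicate 7 was the highest of its group for Ggps1, at 7.0872 against 6.5733. WT-H2O replicate 4 was the lowest of its group for Abca1, at 11.875 against 12.035.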

How the results depend on the processing

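The 12 calls between KO-PB and WT-PB livers held in all 34 alternatives, and the count became 19 with array weights and ran from 12 to 14 with an array left out. The counts of the other comparisons were small and moved. With array weights the counts were 9 for PB in KO livers, 4 for PB in WT livers, 2 between the genotypes without PB and 9 for the difference in PB effect. Without the KO-H2O arrays of low weight (replicates 6 and 7) they were 7, 3, 2 and 3, and without KO-H2O replicates 2, 6 and 7 they were 13, 4, 1 and 10. Replicates 2 and 6 are the KO-H2O arrays lowest for the enzymes, as given above. With only the compared groups fitted, PB in WT livers gave 2 and the genotypes without PB gave 0. With an array left out, the ranges were 1 to 6 for PB in KO livers (6 without KO-H2O replicate 6, 3 without replicate 2, 2 without KO-PB replicate 5), 0 to 2 for PB in WT livers (0 without any WT-PB array or WT-H2O replicate 2, 3 or 5, and 2 without KO-H2O replicate 4 or 7 or WT-H2O replicate 4), 0 to 5 between the genotypes without PB (0 without WT-H2O replicate 2, 1 without WT-H2O replicate 4, 2 without KO-H2O replicate 1) and 0 to 2 for the difference in PB effect (2 without KO-H2O replicate 6). The cause was not tested. The replicate numbers did not pair the arrays: over 20 same-numbered pairs the correlation of deviations ran from -0.70 to 0.63, and 5 correlated best with their own number. A replicate block gave 0 for PB in WT livers. Over all genes, calls also moved by over 1.5 times: PB in KO livers gave 284, against 461 with array weights, 786 without KO-H2O replicates 2, 6 and 7 and 100 with only the compared groups; PB in WT livers gave 532, against 1503, 810 and 929 in that order; the genotypes under PB gave 2772, against 4574 with array weights and 1606 with a replicate block; the genotypes without PB gave 3453, against 1535 without KO-H2O replicates 2, 6 and 7, 1967 with a block and 2078 with only the compared groups; the difference in PB effect gave 121, against 323 with array weights and 273 without KO-H2O replicates 2, 6 and 7. Of the calls for PB in KO livers 57% were upward, and 67.5% after quantile normalization. Of the 25 pairs with Sqle, 7 passed without the 2 farthest arrays, 3 within KO-H2O and 1 within KO-PB livers, against 13 over all arrays, where groups of 7 have fewer arrays. Without KO-H2O replicates 6 and 7, Ggps1 (negative) and Hsd17b7 (positive) also passed, and Idi1, Cyp51, Msmo1, Fdft1 and Insig2 did not. No direction of a passing result reversed.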

Other observations

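Fatty acid synthesis, which the related factor SREBP1 drives, was read in the same fit. Of its 14 genes, 0 passed with PB in KO livers by limma (5 of 14 at an unadjusted p under 0.05), while 4 rose and 0 fell in WT livers. Among all tested genes, 14.7% reached that unadjusted p in KO livers, and 1.95% rose and 1.9% fell in WT livers. Pnpla3, a lipid droplet protein, averaged 8.04 ± 0.619 in WT-PB livers and 6.01 ± 0.336 in WT-H2O livers (SD, n = 4 and 5), a log2 change of 2.03 (adjusted p = 0.0069, limma). Thrsp, a lipogenic regulator, and Elovl6, a fatty acid elongase, gave 1.30 and 1.05 (adjusted p = 0.0055 and 0.012, limma). The difference in PB effect between the genotypes was negative for 12 of the 14 genes, with a median of -0.34. By limma 0 passed, and 4 reached an unadjusted p under 0.05, as did 10.3% of all tested genes. Acaca, the acetyl-CoA carboxylase, was 0.57 higher in KO-H2O than in WT-H2O livers, while Me1, the cytosolic malic enzyme, was at 10.81 ± 0.538 in KO-H2O and 11.67 ± 0.140 in WT-H2O livers (SD, n = 7 and 5; adjusted p = 0.00036 and 0.0042, limma).

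Among all tested genes, 11.9% rose and 8.12% fell in KO against WT livers with PB, and 14.8% rose and 10.1% fell without it. In the isoprenoid branches, 1 of 12 genes fell in each genotype comparison and 0 rose. It was Rabggta, which encodes a subunit of the enzyme that attaches geranylgeranyl groups to Rab proteins, at 7.34 ± 0.146 in KO-PB against 7.69 ± 0.0684 in WT-PB livers (SD, n = 7 and 4), and at 7.28 ± 0.224 in KO-H2O against 7.66 ± 0.0527 in WT-H2O livers (SD, n = 7 and 5), with adjusted p of 0.014 and 0.0042 by limma.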
